A study of Homo sapiens with 8 samples.

Results

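The sgRNAs described here were directed against the cell-surface receptors of the TGF-beta, activin and BMP family. They were chosen by a rule on gene names, as all sgRNAs in the screen against a gene whose symbol starts with TGFBR and a digit, with ACVR or with BMPR, or is AMHR2. The choice was made with earlier results of these data known. The rule found 42 of the 10429 sgRNAs, 7 against each of 6 genes. Type I receptors accounted for 35 sgRNAs, against *ACVR1*, *ACVR1B*, *ACVRL1*, *BMPR1B* and *TGFBR1*, and the type II receptor *TGFBR2* for 7. The rule matched no other gene of the screen, so the type II side of every comparison is 1 gene. The sgRNA sequences were not used here, and the sgRNAs are named by gene and number.

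The screen asked which genes set the level of PRMT5, an enzyme that methylates arginines symmetrically, in chemo-resistant cells of COV362, an established human line of high-grade serous ovarian cancer with the genotype given as WT. All libraries came from cells that had received Cas9 and then the sgRNA library, and that were selected with puromycin, cultured, fixed and stained for PRMT5. Sorting gave 4 PRMT5lo libraries from the cells with the least PRMT5 and 4 PRMT5hi libraries from those with the most, with no treatment that differed between them. The 4 cultures were split from 1 pool of transduced cells, so the errors cover differences that arose after the split and no separate transduction. No unsorted or earlier library was analysed here, so loss of an sgRNA during culture was not measured. Each abundance is the authors' mean over the 4 libraries of a population, in CPM (sgRNA reads scaled to a common library total), and values of single libraries were not used here. Which column belongs to which population follows the study's figure legend and the table's own log2 direction, while the study's methods give the log2 values the opposite sign. Genes whose loss was tested singly in the study fix the direction: blots showed more PRMT5 after loss of *KEAP1* and less after loss of *FER* or *ITGB3*. With the assignment used here, the mean log2 ratio of PRMT5lo over PRMT5hi was -0.62 for *KEAP1*, 0.35 for *FER* and 0.49 for *ITGB3*, and the opposite assignment would turn all 3 against the blots.

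Receptors of this family are serine/threonine kinases that work in complexes of type I and type II chains. A dimeric ligand brings them together, the type II kinase phosphorylates the type I receptor in a stretch rich in glycine and serine, and the activated type I kinase phosphorylates SMAD proteins, which enter the nucleus with SMAD4 and regulate transcription. TGFBR1 and ACVR1B signal mainly through SMAD2 and SMAD3, and ACVR1, ACVRL1 and BMPR1B mainly through SMAD1, SMAD5 and SMAD9. TGF-beta halts the growth of many epithelial cells and can drive an epithelial-mesenchymal transition in carcinomas. An sgRNA more abundant in PRMT5hi cells marks a gene whose disruption was found more often in cells with much PRMT5.

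The member sgRNAs were well represented. Their abundance, averaged over both populations, ran between 22.2 and 271 CPM with a median of 70.9 CPM, against medians of 85.3 CPM for the 9929 targeting sgRNAs and 123 CPM for the 500 control sgRNAs. The depth recovered from the authors' variances was 19117396 reads over the PRMT5lo libraries and 16166859 over the PRMT5hi libraries. This put between 353 and 5015 reads behind a member sgRNA in PRMT5lo and between 391 and 4511 in PRMT5hi. For 11 of the 42 sgRNAs in PRMT5lo and 2 in PRMT5hi the variance was the smallest that counting alone allows, so their errors may be too small. The standard error of a single member's log2 ratio had a median of 0.25, against 0.23 over all targeting sgRNAs.

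None of the 6 receptor genes was called in either direction. *TGFBR1*, which encodes the type I receptor for TGF-beta also called ALK5, came closest. All 7 of its sgRNAs were more abundant in PRMT5hi cells, and their mean log2 ratio of PRMT5lo over PRMT5hi, taken on log2(CPM + 1), was -0.27. *TGFBR2*, *ACVR1B* and *BMPR1B* had means of -0.12, -0.11 and -0.06, and *ACVRL1* and *ACVR1* had means of 0.03 and 0.06. A gene was called here at a one-sided p under 0.01, with the sgRNA p-values of CB2's beta-binomial test combined by Fisher's method, and a mean beyond 0.25 in the same direction. The p and log2 limits are those of the study's figure legend, while its methods ask for a smaller p toward PRMT5lo. A stricter limit of 0.001 could not add a receptor where none had passed 0.01, so the count stayed at 0. Over the 1420 targeted genes 0.704% were called toward PRMT5lo and 0.845% toward PRMT5hi, so the count of 0 of 6 receptors lies near this background. At an unadjusted p under 0.05 from the same combination, *TGFBR1* was the single receptor toward PRMT5hi, where 9.3% of all genes passed, and no receptor passed toward PRMT5lo, where 8.59% did.

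The *TGFBR1* sgRNAs shared a direction. Their log2 ratios had an SD of 0.15, against standard errors between 0.12 and 0.43 for the single sgRNAs, so differences in size of effect were not resolved. The largest shift was that of sgRNA 5, with 53.5 CPM in PRMT5lo and 73.6 CPM in PRMT5hi, a log2 ratio of -0.45 ± 0.35 (SE from the authors' variances, as for every single sgRNA). SgRNA 7 had 87.0 CPM in PRMT5lo and 115 CPM in PRMT5hi, a log2 ratio of -0.40 ± 0.16. SgRNA 3 had 46.0 CPM in PRMT5lo and 60.4 CPM in PRMT5hi, a log2 ratio of -0.38 ± 0.17. These were the 3 lowest ratios of the gene, and sgRNA 3 was its single sgRNA at an unadjusted one-sided p under 0.05 (p = 0.0398, beta-binomial test). The variance was at the smallest that counting allows for sgRNA 7 in PRMT5lo and for sgRNA 3 in PRMT5hi. SgRNA 1 stood at 44.5 CPM in PRMT5lo and 55.9 CPM in PRMT5hi (-0.32 ± 0.26). SgRNA 4 stood at 43.1 CPM in PRMT5lo and 48.3 CPM in PRMT5hi (-0.16 ± 0.43). Both were lower in PRMT5lo by less than 2 standard errors, and the remaining pair lay nearest to no difference. SgRNA 6 had 77.2 CPM in PRMT5lo and 83.2 CPM in PRMT5hi (-0.11 ± 0.30), and sgRNA 2 had 98.8 CPM in PRMT5lo and 105 CPM in PRMT5hi (-0.08 ± 0.12), the smallest shift of the gene.

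As a gene, *TGFBR1* averaged 64.3 CPM in PRMT5lo and 77.3 CPM in PRMT5hi, which on the log2(CPM + 1) scale is a 1.21-fold higher abundance in PRMT5hi cells. The SD of the log2 ratio over its 7 sgRNAs was 0.15, the smallest among the 6 receptors, against a median of 0.26 over all genes. The 95% interval of the mean from the spread between libraries was -0.49 to -0.06, and 4.44% of genes had an interval wholly below 0. A mean below -0.25 was found for 2.54% of genes, and the *TGFBR1* mean was the 28th lowest of 1420. Every sgRNA was more abundant in PRMT5hi for 1.2% of genes and in PRMT5lo for 0.915%. Fisher's combination of the beta-binomial tests gave *TGFBR1* p = 0.0193 toward PRMT5hi, with 64 genes below it, and an adjusted p of 0.422 over all genes. With Stouffer's combination of the same tests, which weighs many small shifts more than a few large ones, the p was 0.00463 and *TGFBR1* passed the limits, as did 1.2% of genes toward PRMT5hi and 0.915% toward PRMT5lo, while its adjusted p was 0.346. Without sgRNA 5 the mean was -0.24, inside the limit of 0.25.

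*TGFBR2* encodes the type II receptor that binds TGF-beta first and activates TGFBR1. Its 7 sgRNAs did not move one way, with 4 more abundant in PRMT5hi and 3 in PRMT5lo. SgRNA 7, the least abundant, had 26.9 CPM in PRMT5lo and 38.9 CPM in PRMT5hi (-0.51 ± 0.43). SgRNA 5 had 41.5 CPM in PRMT5lo and 58.3 CPM in PRMT5hi (-0.48 ± 0.21; beta-binomial p = 0.0484 toward PRMT5hi, unadjusted). These were the 2 sgRNAs of *TGFBR2* with the lowest ratios and its 2 least abundant. SgRNA 1 stood at 131 CPM in PRMT5lo and 139.9 CPM in PRMT5hi (-0.10 ± 0.27). SgRNA 3, the most abundant of all member sgRNAs, had 262 CPM in PRMT5lo and 279 CPM in PRMT5hi (-0.09 ± 0.09). Both of these well-covered sgRNAs differed little between the populations. The others were higher in PRMT5lo, by less than their errors: sgRNA 2 with 111 CPM in PRMT5lo and 99.2 CPM in PRMT5hi (0.16 ± 0.39), sgRNA 6 with 56.9 CPM in PRMT5lo and 50.9 CPM in PRMT5hi (0.16 ± 0.29), and sgRNA 4 with 90.1 CPM in PRMT5lo and 87.7 CPM in PRMT5hi (0.04 ± 0.29).

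The *TGFBR2* mean of -0.12 had a 95% interval of -0.35 to 0.11 and a Fisher-combined p of 0.185 toward PRMT5hi. Without sgRNA 7 the mean was -0.05, and from summed read shares, which give the abundant sgRNAs more weight, it was -0.07. For *TGFBR1* the summed shares gave -0.27, the same as the mean over sgRNAs. The difference of the *TGFBR1* mean from the *TGFBR2* mean was -0.15, with a 95% interval of -0.46 to 0.15, so the partners of the TGF-beta complex were not told apart at this precision.

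*ACVR1B*, the type I receptor for activin also called ALK4, had sgRNAs on both sides. Its highest log2 ratio was that of sgRNA 1, with 163 CPM in PRMT5lo and 129 CPM in PRMT5hi (0.34 ± 0.20). Its lowest was that of sgRNA 5, with 31.7 CPM in PRMT5lo and 43.9 CPM in PRMT5hi (-0.46 ± 0.29). Of its 7 sgRNAs 4 were more abundant in PRMT5hi, and none reached an unadjusted p under 0.05 in the beta-binomial test. SgRNA 6 had 25.5 CPM in PRMT5lo and 33.7 CPM in PRMT5hi (-0.39 ± 0.28), sgRNA 2 had 50.0 CPM in PRMT5lo and 58.2 CPM in PRMT5hi (-0.21 ± 0.24), and sgRNA 7 had 148 CPM in PRMT5lo and 170.3 CPM in PRMT5hi (-0.20 ± 0.20). SgRNA 4 had 88.1 CPM in PRMT5lo and 80.7 CPM in PRMT5hi (0.12 ± 0.11), and sgRNA 3 had 24.9 CPM in PRMT5lo and 24.2 CPM in PRMT5hi (0.04 ± 0.58). The 4 sgRNAs lower in PRMT5lo thus ranged widely in abundance. The median over sgRNAs was -0.20 and the mean -0.11 (95% interval -0.35 to 0.14), and the summed shares gave -0.03.

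*ACVRL1*, also called ALK1, is a type I receptor for BMP9 and BMP10 and for TGF-beta, known mainly from endothelium, and it had the widest spread among its sgRNAs. Their SD was 0.42, against 0.15 to 0.29 for the other 5 receptors. SgRNA 2 had 108 CPM in PRMT5lo and 66.2 CPM in PRMT5hi, a log2 ratio of 0.70 ± 0.11 and a 1.62-fold higher abundance in PRMT5lo. It was the highest of the 42 members, and 98.9% of targeting sgRNAs had a lower log2 ratio. Its one-sided p toward PRMT5lo was 0.0017 in the beta-binomial test, and its two-sided p adjusted over all targeting sgRNAs was 0.281. With the variance taken from the trend over sgRNAs of like abundance, its SE was 0.26 and its one-sided p 0.0176. Of the other 6 *ACVRL1* sgRNAs 3 were also higher in PRMT5lo and 3 were lower, with ratios between -0.46 and 0.30. SgRNA 7 had 18.5 CPM in PRMT5lo and 25.9 CPM in PRMT5hi (-0.46 ± 0.45), and sgRNA 4 had 90.4 CPM in PRMT5lo and 118 CPM in PRMT5hi (-0.38 ± 0.16; beta-binomial p = 0.0570 toward PRMT5hi). The abundant sgRNA 5 had 255 CPM in PRMT5lo and 208 CPM in PRMT5hi (0.30 ± 0.24). The remaining sgRNAs lay within about 1 standard error of 0, with 46.1 CPM in PRMT5lo and 55.3 CPM in PRMT5hi for sgRNA 1 (-0.26 ± 0.26), 78.1 CPM in PRMT5lo and 66.4 CPM in PRMT5hi for sgRNA 3 (0.23 ± 0.36), and 141 CPM in PRMT5lo and 131 CPM in PRMT5hi for sgRNA 6 (0.11 ± 0.21). The gene mean of 0.03 (95% interval -0.19 to 0.26) became -0.08 without sgRNA 2 and -0.01 without sgRNA 5, so its sign was not stable. The summed shares gave 0.13.

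*ACVR1* and *BMPR1B*, type I receptors for BMPs also called ALK2 and ALK6, lay close to no difference. The *ACVR1* sgRNAs ran between sgRNA 2, with 52.4 CPM in PRMT5lo and 65.9 CPM in PRMT5hi (-0.33 ± 0.20), and sgRNA 6, with 103 CPM in PRMT5lo and 85.4 CPM in PRMT5hi (0.27 ± 0.30). Of the 7, 5 were more abundant in PRMT5lo, and the mean was 0.06 (95% interval -0.20 to 0.31). The other 5 ratios lay between -0.02 and 0.16, each below its standard error. The most abundant of these, sgRNA 1, had 184 CPM in PRMT5lo and 169.6 CPM in PRMT5hi (0.11 ± 0.17), and the least abundant, sgRNA 5, had 26.3 CPM in PRMT5lo and 26.6 CPM in PRMT5hi (-0.02 ± 0.46).

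The *BMPR1B* sgRNAs ran between 58.3 and 122 CPM, averaged over both populations. Its sgRNA 3 had 47.9 CPM in PRMT5lo and 68.6 CPM in PRMT5hi (-0.51 ± 0.25; beta-binomial p = 0.0393 toward PRMT5hi, unadjusted). Its highest was sgRNA 7, with 67.4 CPM in PRMT5lo and 60.1 CPM in PRMT5hi (0.16 ± 0.32). The most precise ratio among all members was that of sgRNA 6, with 70.7 CPM in PRMT5lo and 64.8 CPM in PRMT5hi (0.12 ± 0.07), where the PRMT5lo variance was at the smallest that counting allows. The other 4 ratios lay between -0.14 and 0.05. The *BMPR1B* mean of -0.06 (95% interval -0.22 to 0.09) became 0.01 without sgRNA 3.

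Taken one by one, 1 of the 42 member sgRNAs (2.38%) had an unadjusted one-sided p under 0.05 toward PRMT5lo in the beta-binomial test and 3 (7.14%) toward PRMT5hi. Over all targeting sgRNAs these shares were 5.66% and 6%, and over the control sgRNAs 9% toward PRMT5lo and 6.6% toward PRMT5hi. The 3 sgRNAs toward PRMT5hi belonged to 3 different genes, *BMPR1B*, *TGFBR1* and *TGFBR2*, and the 1 toward PRMT5lo was sgRNA 2 of *ACVRL1*. With the variance taken from the trend, the one-sided beta-binomial p of these 3 lay between 0.0755 and 0.152. That of the *ACVRL1* sgRNA was 0.0176. No member had an adjusted p under 0.05, which 0.0504% of targeting sgRNAs had.

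Type I and type II receptors did not differ beyond their error. The 35 type I sgRNAs had a mean log2 ratio of -0.07 (95% interval -0.17 to 0.02), and the 7 type II sgRNAs, all against *TGFBR2*, had a mean of -0.12 (95% interval -0.35 to 0.11). The difference of type I from type II was 0.05, with a 95% interval of -0.20 to 0.30. Of the type I sgRNAs 20 of 35 were more abundant in PRMT5hi, and of the type II sgRNAs 4 of 7, which is 57.1% of each, against 50.2% of all targeting and 48.2% of control sgRNAs. Median abundance was 70.7 CPM in PRMT5lo and 68.6 CPM in PRMT5hi for type I, and 90.1 CPM in PRMT5lo and 87.7 CPM in PRMT5hi for type II.

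The means of the 5 type I genes ran between -0.27 (*TGFBR1*) and 0.06 (*ACVR1*), with standard errors between 0.08 and 0.12. The gap between the types was 0.05, with a standard error of 0.12. Whether the type I genes differ among themselves was not tested. Without *TGFBR1* the mean of the other 28 type I sgRNAs was -0.02, with 15 above 0 and 13 below. Set against *TGFBR2* one at a time, the 5 type I genes differed by between -0.15 (*TGFBR1*) and 0.17 (*ACVR1*), and all 5 of the 95% intervals, from the spread between libraries, contained 0. The 42 members together had a mean of -0.08 and a median of -0.09, against -0.0049 and -0.0018 over all targeting sgRNAs. The 95% interval of the members' mean was -0.17 to 0.01 and contained 0. Without *TGFBR1* the mean of the remaining 35 was -0.04 (95% interval -0.14 to 0.06).

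The library also targeted 13 other genes of the pathway that had been listed with the receptors: the ligands *TGFB1*, *TGFB2*, *TGFB3*, *INHBA* and *MSTN*, the co-receptors *ENG* and *TDGF1*, the immunophilin *FKBP1A*, which binds type I receptors, the integrin subunits *ITGAV* and *ITGB6*, which help to free TGF-beta from its latent form, the kinase *MAP3K7*, and *CTGF* and *HAMP*, targets of TGF-beta and BMP signaling. The list does not hold every integrin subunit of the library. *ITGB3*, which is not on it, passed the limits toward PRMT5lo (mean 0.49, Fisher-combined p = 0.00252). None of the 13 was called in either direction, by Fisher's or by Stouffer's combination. Their means were above 0 for 5 and below 0 for 8, with a median of -0.06 over the genes. The highest was that of *ITGAV*, at 0.19 (SD 0.27 over sgRNAs), with 62.4 CPM in PRMT5lo and 58.1 CPM in PRMT5hi. The lowest was that of *HAMP*, which encodes the iron hormone hepcidin, at -0.14 (SD 0.28), with 80.2 CPM in PRMT5lo and 86.3 CPM in PRMT5hi.

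All 5 ligands had means below 0, between -0.14 and -0.0025. For *TGFB2*, at -0.0025, 5 of the 7 sgRNAs were more abundant in PRMT5lo and the median was 0.11. Of the 35 ligand sgRNAs 22 (62.9%) were more abundant in PRMT5hi, against 50.2% of all targeting sgRNAs. The mean over the 35 was -0.08, with a 95% interval of -0.18 to 0.03 that contains 0. The means over sgRNAs were -0.02 for the co-receptors, -0.12 for the immunophilin and -0.04 for the targets. They were 0.10 for the integrin subunits and 0.14 for the kinase. *INHBA*, the subunit of activin A, was the single gene of the 13 at an unadjusted p under 0.05, toward PRMT5hi with none toward PRMT5lo (Fisher-combined p = 0.0250, adjusted p = 0.455), and it is named for this after its values were seen. Over all genes 9.3% passed toward PRMT5hi and 8.59% toward PRMT5lo, so 1 of 13 is no more than the background. *INHBA* averaged 89.3 CPM in PRMT5lo and 96.9 CPM in PRMT5hi, and 6 of its 7 sgRNAs were more abundant in PRMT5hi. Its mean log2 ratio was -0.14 (SD 0.17, 95% interval -0.40 to 0.12). The 95% intervals of all 13 genes contained 0.

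In the RefSeq annotation of GRCh38.p14, *TGFBR1* lies at chr9:99103647-99154192, *TGFBR2* at chr3:30606356-30694142, *ACVR1* at chr2:157736446-157876330 and *BMPR1B* at chr4:94757955-95158450. *ACVRL1* (chr12:51906944-51923361) and *ACVR1B* (chr12:51951699-51997078) are neighbours on chromosome 12, with means of 0.03 and -0.11. Where in each gene an sgRNA cuts was not analysed here.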

How the data were processed

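The authors mapped reads to the sgRNA library, counted them and compared 4 PRMT5lo with 4 PRMT5hi libraries with CB2. The submitters' notes name FastQC and hg38, and no source used here states versions. The deposited CPM values are the authors' means per population. The deposited fraction of each sgRNA is its estimated share of the reads, with a variance over libraries that the authors also deposited. The columns of log2 ratios, scores and p-values and the table per gene hold the authors' own comparison and were not used.

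Here the beta-binomial sgRNA test was rebuilt from the fractions and variances, and log2 ratios were taken with a pseudocount of 1 CPM. One-sided p-values were combined per gene by Fisher's method, with Benjamini-Hochberg adjustment over 1420 genes or 9929 sgRNAs. Intervals at 95% use the authors' variances by the delta method and cover the spread between libraries, not the choice of sgRNAs. The code (Python 3.11.15, scipy 1.17.1) was tested on simulated data. Without values per library, no count test was possible. By rule, all receptor genes, the sgRNAs with the highest and lowest log2 ratio of each, and the highest and lowest gene of the pathway list are named. The other sgRNAs named were added after their values were seen. Members and lists were chosen with earlier results of these data known. Gene positions and other names are from RefSeq. Alternatives were pseudocounts of 5 and 10 CPM, a minimum of 20 CPM, centring on control sgRNAs, medians, summed shares, Stouffer's method, other p limits, a variance trend over 20 abundance bins, and leaving out sgRNAs or genes.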

Additional observations from a re-analysis of the deposited data

How the results depend on the processing

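No paired analysis was possible because each value summarises the 4 libraries of a population, and for the same reason no library could be left out. Stouffer's combination gave 1 called receptor gene (*TGFBR1*), and the count was 0 under every other alternative. Most of the others could not raise it. Other pseudocounts, centring and medians leave the p-values unchanged, the minimum of 20 CPM removed no member, and the other p limits are stricter. The variance trend and leaving out sgRNAs could change the count, and it stayed at 0 when each member sgRNA was left out. With the variance from the abundance trend, an alternative for genes that was chosen after seeing the data, *TGFBR1* had p = 0.0470 by Fisher's and p = 0.0115 by Stouffer's combination of the beta-binomial tests, and no receptor was called. Leaving out 1 *TGFBR1* sgRNA at a time gave it Fisher-combined p-values between 0.0149 and 0.0575. The share of member sgRNAs at an unadjusted p under 0.05 in either direction was 9.52%, and 2.38% with the variance trend, where the share over all targeting sgRNAs also fell, to 6.19% against 11.7%. The difference of type I from type II lay between -0.02 and 0.10 when sgRNAs or type I genes were left out. It was below 0 without sgRNA 7 (-0.02) or sgRNA 5 (-0.01) of *TGFBR2*. The other alternatives moved no gene mean by more than its standard error, except that of *ACVRL1* without sgRNA 2. All 42 members had at least 20 CPM when averaged over both populations. The 95% interval of a receptor's mean reached between 0.16 and 0.26 to either side, and smaller shifts could not be told from 0. The variances of the member sgRNAs were a median of 11.4 times the counting variance in PRMT5lo and 23.6 times in PRMT5hi, so the spread between libraries set this width more than depth did.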

Other observations

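Grouped by the SMAD proteins they mainly use, a grouping chosen after the values were seen and not tested, the 21 sgRNAs against *TGFBR1*, *TGFBR2* and *ACVR1B* had a mean log2 ratio of PRMT5lo over PRMT5hi of -0.17 and 15 of 21 were more abundant in PRMT5hi. The 21 sgRNAs against *ACVR1*, *ACVRL1* and *BMPR1B* had a mean of 0.01, and 9 of 21 were more abundant in PRMT5hi. These shares are 71.4% and 42.9%, against 50.2% of all targeting sgRNAs. *TGFBR1* accounts for 7 of the 15, and *TGFBR2* and *ACVR1B* for 4 each. The means of *TGFBR2* and *ACVR1B* were -0.12 and -0.11, with 95% intervals that contain 0.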
